A study of Mus musculus with 2 samples.

Results

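The genes described here are 37 genes of the hepatoblast, the bipotent epithelial progenitor of the fetal liver: 24 for plasma proteins, 7 for metabolic enzymes and 6 for transcription factors. They were taken by name, with earlier results of these data known. Of the 37, 35 had at least 1 probe set that the platform annotation assigns to that gene alone, with 61 such probe sets between them. The array held such probe sets for 18193 genes in all. Serpina1a and Trf were covered only by probe sets assigned to several genes and are kept out of every count of signals and calls.

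Hepatoblasts bud from the foregut endoderm, take up liver fate under the FOXA pioneer factors and HNF4A, and secrete albumin, alpha-fetoprotein, transthyretin and apolipoproteins while blood cells still form around them. They later become hepatocytes and cholangiocytes. Hepatocytes go on to make most plasma proteins, and many enzymes of gluconeogenesis, urea synthesis and amino acid breakdown reach full activity in them around and after birth, while alpha-fetoprotein is shut off. Mesothelial cells, the sheet that covers the liver, are of mesodermal origin and are not known as a source of most of these proteins.

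The cells were mesothelial cells of C57BL/6 mouse livers, freed with collagenase and isolated on a cell sorter. The adult group was Mesothelin-sorted cells of mice 8 weeks old, and the E12.5 group was PCLP1-sorted cells of embryos at embryonic day 12.5, where PCLP1 is the sialomucin encoded by Podxl. No genetic change or treatment is given for either group. Each group was 1 Affymetrix array made from 10 ng of total RNA through 2 cycles of cDNA synthesis, so no spread between replicates exists and no test was possible. Effects of stage, of the antibody used for sorting and of the single array cannot be told apart.

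Signals are the deposited raw intensities, with the adult array scaled to the median of the E12.5 array, and differences are log2 adult minus log2 E12.5. A probe set was taken as detected where its call was present. The arrays had 52.2% (adult) and 51.9% (E12.5) of probe sets called present. The sorting antigens stood on the side of their labels, with Msln at 11835 in adult and 48.5 at E12.5 and Podxl at 1807 in adult and 6069 at E12.5. The mesothelial transcription factor Wt1 (2228 in adult and 2152 at E12.5) and the uroplakin Upk3b (18571 in adult and 10114 at E12.5) were called present on both arrays. The ratio of 3' to 5' signal of the Gapdh control probe sets, a measure of RNA integrity, was 6.81 in adult and 2.07 at E12.5. For the beta-actin control probe sets it was 3.47 in adult and 1.93 at E12.5, a smaller gap. The part of RNA integrity in the differences below was not tested.

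Most plasma protein genes, 19 of the 22 measured, were at least 2-fold lower on the adult array, against 29.1% of all detected genes. The genes were chosen with earlier results of these data known, so this excess may not be independent of the choice. The enzymes gave weak signals on both arrays, and so did the transcription factors. Of the 35 measured genes, 26 had a present call for any of their probe sets on the adult array and 27 on the E12.5 array. Over all genes these shares were 63.3% in adult and 63.9% at E12.5. By group, 19 of 22 plasma protein genes were present in adult and 21 at E12.5, 5 of 7 enzyme genes were present in adult and 2 at E12.5, and 2 of 6 transcription factor genes were present in adult and 4 at E12.5. In a sorted bulk sample, fewer hepatic cells among the sorted cells and less of a transcript per cell cannot be told apart.

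Represented by 1 probe set each, 31 of the 35 genes were detected on at least 1 array. Of these, 21 were at least 2-fold lower in adult, 3 at least 2-fold higher in adult and 7 neither. Over all 12801 detected genes, 29.1% were at least 2-fold lower in adult and 16.9% at least 2-fold higher. Without scaling of the arrays the counts of members were 23 lower and 0 higher in adult, and the shares over all detected genes were 46.5% lower and 11.5% higher. The 21 comprised 19 of 22 plasma protein genes, none of the 7 enzyme genes and 2 of 6 transcription factor genes.

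All 22 plasma protein genes passed the detection filter, so that their median difference of -3.24 on the log2 scale covers all that were measured. It was -0.35 over all detected genes. The filter removed 2 enzyme and 2 transcription factor genes. The medians of those that passed were 0.49 for 5 enzyme genes and -0.97 for 4 transcription factor genes, against 0.49 over all 7 and -0.78 over all 6. The filter can favour a direction, since 6 members passed through a present call on the E12.5 array alone (4 plasma protein and 2 transcription factor genes) and 4 through the adult array alone (Apoc3 and 3 enzyme genes). In 17 plasma protein genes the representing probe set was called present on both arrays. Of these 17, 15 were at least 2-fold lower in adult (27.1% of all such genes). The same 15 were at least 4-fold lower in adult (7.11% of all such genes), and 0 of the 17 were at least 2-fold higher (13.2% of all such genes). Of the 31 detected members, 18 had differences among the lowest 10% of all detected genes, at or below -2.07, and all 18 were plasma protein genes. This rank does not move with a constant scaling of the arrays, whereas the 4-fold count does. Under quantile normalization Alb (-1.96), Ahsg (-1.90), Ambp (-1.73), F2 (-1.93) and Kng1 (-1.98) lay within 4-fold. The same genes lay within 4-fold with the genes detected on both arrays centred on 0.

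**Figure D1:**
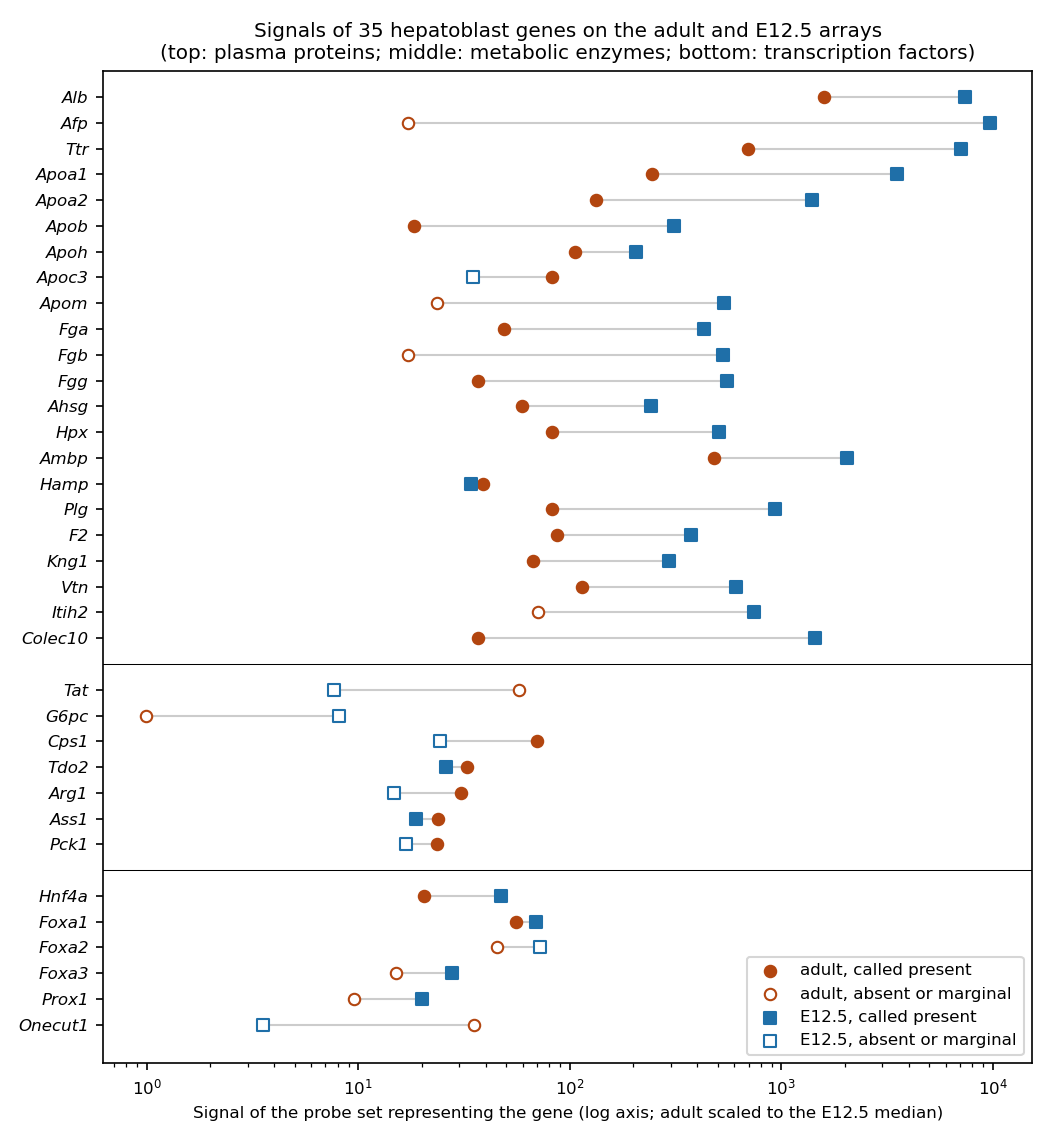
Signals of the 35 measured genes on the adult array (circles) and the E12.5 array (squares) on a log axis, 1 gene a row, with open symbols for probe sets not called present; each symbol is 1 array. Most plasma protein genes have their adult circle far left of the E12.5 square, such as Alb at 1584 in adult and 7365 at E12.5, whereas no enzyme gene lies above 69.9 on either array.

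**Figure D2:**
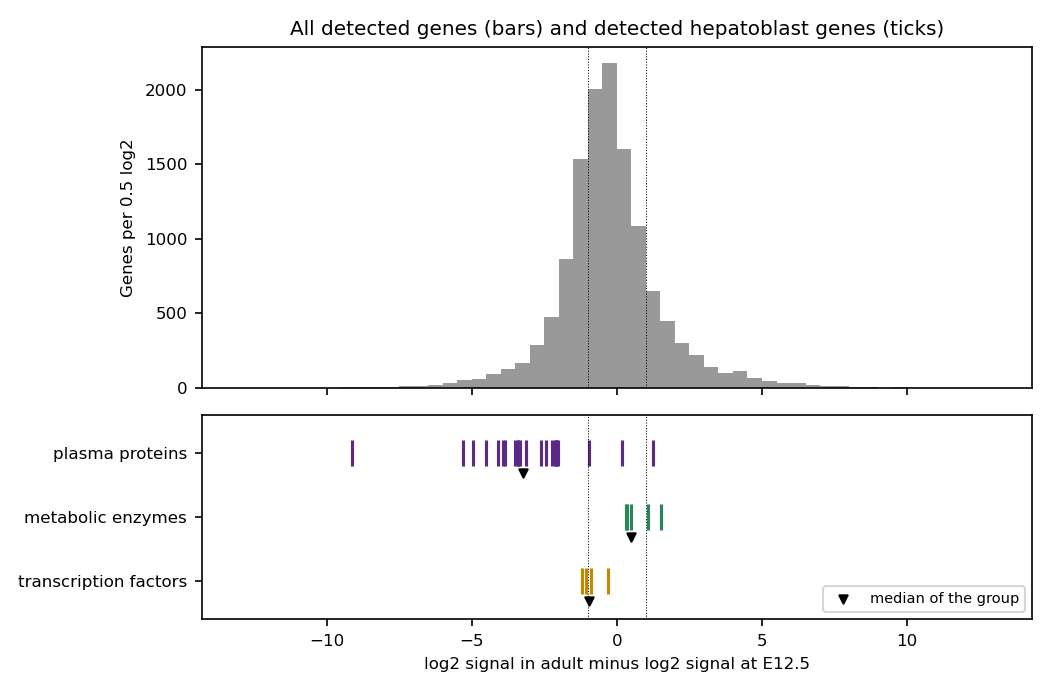
Upper panel, number of genes per bin of the log2 difference, adult minus E12.5, over 12801 detected genes; lower panel, the 31 detected members as ticks with the median of each group as a triangle, and dotted lines at 2-fold. The plasma protein ticks lie mostly left of the bulk of genes (median -3.24), the enzyme ticks to the right of 0 (median 0.49) and the transcription factor ticks between (median -0.97).

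Among the carrier proteins, Alb and Afp encode albumin, the main plasma protein from fetal life on, and alpha-fetoprotein, its fetal relative. The genes are neighbours on mouse chromosome 5 with no coding gene between them. Alb had a signal of 1584 in adult and 7365 at E12.5, was called present on both arrays and was 4.65-fold lower in adult. Afp had a signal of 17.2 in adult, where its representing probe set was called absent, and 9666 at E12.5, and was at least 562-fold lower in adult. The neighbours thus lay on the same side of 0 with differences of -2.22 for Alb and -9.13 for Afp. The promoters of this pair are shown because these genes had unequal differences and both hold a match to GTTAAT, the core of the sites of HNF1, a homeodomain factor of liver genes. The bases run 5' to 3' on the gene's strand and end at the base before the RefSeq gene start on GRCm38.p6, at chr5:90460620-90460869 (plus strand) for Alb and chr5:90490464-90490713 (plus strand) for Afp, with matches to GTTAAT or its reverse complement in capitals.
Alb: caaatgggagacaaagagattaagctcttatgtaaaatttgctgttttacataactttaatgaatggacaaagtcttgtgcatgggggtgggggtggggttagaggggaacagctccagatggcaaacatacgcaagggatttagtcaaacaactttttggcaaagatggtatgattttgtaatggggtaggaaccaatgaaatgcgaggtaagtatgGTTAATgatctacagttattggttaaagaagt
Afp: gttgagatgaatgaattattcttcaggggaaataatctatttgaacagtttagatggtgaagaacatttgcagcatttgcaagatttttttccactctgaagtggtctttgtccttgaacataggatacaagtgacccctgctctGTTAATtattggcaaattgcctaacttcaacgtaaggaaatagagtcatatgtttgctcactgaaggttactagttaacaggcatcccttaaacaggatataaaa
The match lies 32 to 27 bases before the start of Alb and 105 to 100 bases before the start of Afp. It says only that these letters are present.

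Afp had 5 probe sets, 3 of them detected, and they differed by more than 2-fold in their differences. Their signals were 11.9 in adult and 10518 at E12.5 for a probe set called present on both arrays, 17.2 in adult and 9666 at E12.5 for the one that represents the gene, and 2.35 in adult and 10565 at E12.5 for one absent in adult. The present call in adult thus rested on a signal of 11.9. The other 2 probe sets of Afp were absent on both arrays, with at most 14.6 in adult and 74.5 at E12.5. In the authors' deposited table the ratio of adult to E12.5 stood at its floor of 0.01 for the 3 detected probe sets of Afp, and was 0.215 for Alb.

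Zbtb20 and Zhx2, which encode factors that repress Afp in the mouse liver after birth, were both called present on both arrays. Zbtb20 had a signal of 1429 in adult and 264 at E12.5, 5.42-fold higher in adult. Zhx2 had 108 in adult and 51.0 at E12.5, 2.13-fold higher in adult and so just past 2-fold. Any part of these 2 factors in the difference of Afp was not tested.

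Ttr encodes transthyretin, a carrier of thyroid hormone and of retinol-binding protein and an early hepatoblast product. It had a signal of 697 in adult and 7063 at E12.5 and was 10.1-fold lower in adult. Its 4 detected probe sets were all lower in adult, with differences between -3.34 and -2.35. Hpx encodes hemopexin, which binds free haem, and had 82.7 in adult and 505 at E12.5, 6.10-fold lower in adult. All 4 carrier genes thus lay at least 4-fold lower in adult, though Alb lay within 4-fold under quantile normalization (-1.96). In adult, Alb, Ttr and Hpx had a present call on the probe set that represents them.

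The apolipoprotein genes went both ways, with 4 of 6 at least 2-fold lower in adult, 1 higher and 1 neither. Apoa1 encodes the main protein of high-density lipoprotein and had 245 in adult and 3517 at E12.5, 14.4-fold lower in adult. Apoa2, of the same particle, had 132 in adult and 1391 at E12.5, 10.5-fold lower in adult. Apob, the scaffold of very-low-density and low-density lipoproteins, had 18.3 in adult and 309.9 at E12.5, 16.9-fold lower in adult with a present call on both arrays. These 3 were called present on both arrays and lay more than 10-fold apart.

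Apom encodes a lipocalin that carries sphingosine-1-phosphate on high-density lipoprotein. Its representing probe set had 23.6 in adult, with an absent call, and 536 at E12.5, at least 22.7-fold lower in adult. Its other probe set, also absent in adult, had 1.41 in adult and 1270 at E12.5, so that the probe sets shared a direction but their differences of -4.51 and -9.81 lay 5.31 apart on the log2 scale. Apoh, beta-2-glycoprotein I, had 106 in adult and 206 at E12.5 and at 1.94-fold lower in adult fell just inside 2-fold. Apoc3, an inhibitor of triglyceride clearance, had 82.7 in adult and 34.8 at E12.5, where it was called absent, and was at least 2.38-fold higher in adult, the 1 plasma protein gene past 2-fold in that direction.

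The 3 chains of fibrinogen, the precursor of the fibrin clot, were all lower in adult. Fga had 48.6 in adult and 429.7 at E12.5, 8.84-fold lower in adult. Fgb had 17.2 in adult, with an absent call, and 529 at E12.5, at least 30.7-fold lower in adult. Fgg had 36.7 in adult and 556 at E12.5, 15.1-fold lower in adult. The chains are assembled in equal numbers into 1 protein and their genes lie together on mouse chromosome 3. Their differences spanned -4.94 to -3.14. Their promoters are shown because these neighbours lay on the same side of 0, with the same convention as above, at chr3:83025903-83026152 (plus strand) for Fga, chr3:83049864-83050113 (minus strand) for Fgb and chr3:83007474-83007723 (plus strand) for Fgg.
Fga: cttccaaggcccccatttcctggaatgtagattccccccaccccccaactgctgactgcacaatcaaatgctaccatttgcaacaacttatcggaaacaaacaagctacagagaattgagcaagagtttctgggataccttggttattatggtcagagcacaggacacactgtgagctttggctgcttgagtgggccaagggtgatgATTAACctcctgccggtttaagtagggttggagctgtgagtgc
Fgb: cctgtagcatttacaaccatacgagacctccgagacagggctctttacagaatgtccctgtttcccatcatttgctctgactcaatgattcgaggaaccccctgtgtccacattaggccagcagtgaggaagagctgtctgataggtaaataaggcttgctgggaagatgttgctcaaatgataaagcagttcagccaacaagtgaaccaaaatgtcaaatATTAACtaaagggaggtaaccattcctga
Fgg: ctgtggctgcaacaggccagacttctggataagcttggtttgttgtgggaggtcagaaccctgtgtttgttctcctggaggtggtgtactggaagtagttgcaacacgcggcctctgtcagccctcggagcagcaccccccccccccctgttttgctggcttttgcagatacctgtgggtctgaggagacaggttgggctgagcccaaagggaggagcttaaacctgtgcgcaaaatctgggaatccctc
Fga held a match 43 to 38 bases and Fgb 29 to 24 bases before the start, both on the opposite strand, and Fgg held none in this window.

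Precursors of blood proteases and kinins were lower in adult in all 3 genes, each with a present call on both arrays. Plg encodes plasminogen, the zymogen of the clot-dissolving protease, and had 82.7 in adult and 937 at E12.5, 11.3-fold lower in adult. F2 encodes prothrombin and had 86.8 in adult and 373 at E12.5, 4.29-fold lower in adult. Kng1 encodes kininogen, the source of bradykinin, and had 67.3 in adult and 293 at E12.5, 4.35-fold lower in adult. The differences of F2 (-2.10) and Kng1 (-2.12) lay close together, and that of Plg (-3.50) lay further out. The other probe set of Kng1 had a difference of -1.59.

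Of the 6 remaining plasma protein genes, 5 were at least 4-fold lower in adult. Under quantile normalization Ambp (-1.73) and Ahsg (-1.90) among them lay within 4-fold. Colec10, a collectin of innate defence, had 36.8 in adult and 1444 at E12.5, 39.2-fold lower in adult, the lowest difference among members whose representing probe set was called present on both arrays. Itih2, a heavy chain of the inter-alpha inhibitor that binds hyaluronan, had 70.9 in adult, with an absent call, and 747 at E12.5, at least 10.5-fold lower in adult. Ambp encodes the light chain of the same inhibitor, bikunin, together with alpha-1-microglobulin. It had 481 in adult and 2050.1 at E12.5, 4.26-fold lower in adult.

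Vtn, the adhesive protein vitronectin, had 114 in adult and 614 at E12.5, 5.37-fold lower in adult. Ahsg, fetuin-A, an inhibitor of mineral deposition, had 59.7 in adult and 242 at E12.5, 4.05-fold lower in adult. Hamp, the iron hormone hepcidin, had 38.9 in adult and 34.3 at E12.5 with a difference of 0.18, and its second probe set was absent on both arrays. Hamp was the only plasma protein gene called present on both arrays with a higher adult signal.

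The 2 members without a probe set of their own can be described only through shared ones. A probe set assigned to both Serpina1a and Serpina1d, near-identical genes for alpha-1-antitrypsin, had 114 in adult and 1304 at E12.5, 11.4-fold lower in adult. A probe set assigned to both Trf, which encodes the iron carrier transferrin, and its neighbour Srprb had 6162 in adult and 1976 at E12.5, 3.12-fold higher in adult. Which gene of each pair gave the signal cannot be told from these probe sets.

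Among the 5 detected enzyme genes, Cps1 and Arg1 stood at least 2-fold higher in adult, 0 were lower and 3 neither. Of these 5, Cps1, Arg1 and Pck1 passed the detection filter through the adult array alone, and only Tdo2 and Ass1 were called present on both arrays, so that the counts say little of a direction. No signal of the 7 exceeded 69.9 in adult or 25.9 at E12.5. In the urea cycle, Cps1, which makes carbamoyl phosphate and starts the cycle, had 69.9 in adult and 24.2 at E12.5 with a present call in adult alone, at least 2.88-fold higher in adult. Arg1, which releases urea and is also found in macrophages, had 30.7 in adult and 14.8 at E12.5 with a present call in adult alone, at least 2.08-fold higher in adult. Ass1, which makes argininosuccinate, had 23.8 in adult and 18.7 at E12.5 on the probe set assigned to it alone, a difference of 0.35. A probe set that Ass1 shares with Gm5424 had 29.3 in adult and 84.7 at E12.5, 2.88-fold lower in adult, so that the probe sets for Ass1 differed in direction.

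Tdo2, which opens the ring of tryptophan, had 32.6 in adult and 25.9 at E12.5 with a present call on both arrays and a difference of 0.33. Pck1, which commits carbon to gluconeogenesis, had 23.7 in adult and 16.8 at E12.5, with a present call in adult alone and a difference of 0.49. Tat, which breaks down tyrosine, was absent on both arrays with 57.4 in adult and 7.70 at E12.5, and G6pc, which releases free glucose, was absent on both with 0.990 in adult and 8.09 at E12.5. For these absent calls no fold is given.

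The transcription factor genes gave weak signals on both arrays, at most 55.5 in adult and 72.1 at E12.5 for the probe sets that represent them. Hnf4a, the nuclear receptor that drives many hepatocyte genes, had 20.4 in adult and 47.4 at E12.5 with a present call on both arrays, 2.32-fold lower in adult. Its 3 other probe sets were absent on both arrays, the brightest of them with 10.2 in adult and 122 at E12.5. Prox1, a homeodomain factor of hepatoblasts and of lymphatic endothelium, had 9.57 in adult, with an absent call, and 20.1 at E12.5, at least 2.10-fold lower in adult. With the genes detected on both arrays centred on 0, both of these lay within 2-fold.

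Of the 3 forkhead pioneer factor genes none lay beyond 2-fold. Foxa1 had 55.5 in adult and 69.0 at E12.5 with a present call on both arrays and a difference of -0.31. Foxa2 had 45.2 in adult, called absent, and 72.1 at E12.5, called marginal. Foxa3 had 15.1 in adult, called absent, and 27.7 at E12.5, called present, a difference of -0.88. Onecut1, a factor of hepatoblasts and bile duct precursors, was absent on both arrays with 35.2 in adult and 3.54 at E12.5.

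Where a member had several detected probe sets, they shared a direction in all 8 genes. Their differences lay within 1 on the log2 scale of each other in 6 of the 8 and further apart for Afp and Apom. The 4 probe sets of Apoa1 lay between -4.60 and -3.62, and those of Vtn between -2.42 and -2.32. For Kng1 they were -2.12 and -1.59, and for Tdo2 0.23 and 0.33.

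**Figure D3:**
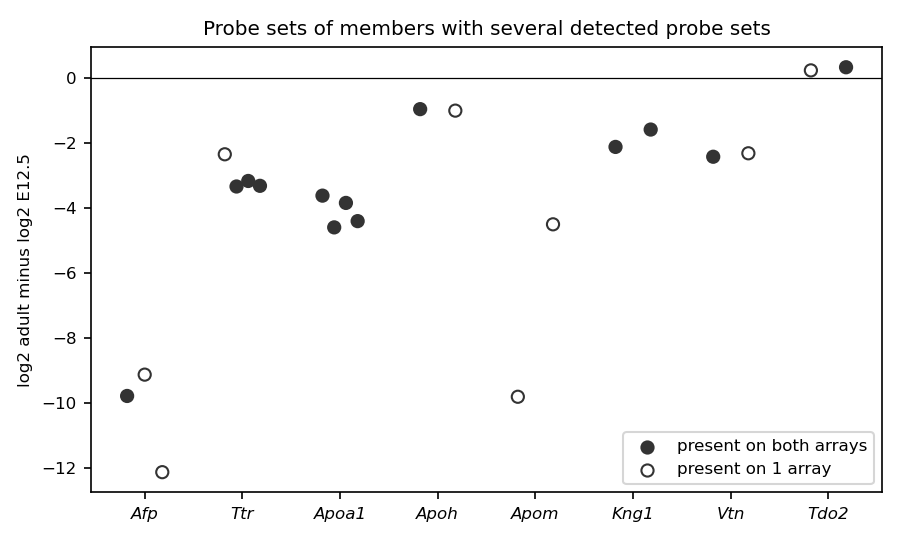
log2 difference, adult minus E12.5, of each detected probe set (circles) for the 8 members with several detected probe sets; filled circles are present on both arrays and open circles on 1. Every probe set of 7 genes lies below 0, those of Tdo2 lie at 0.23 and 0.33, and Apom spans -9.81 to -4.51.

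RefSeq promoters on GRCm38.p6 were matched for 29 of the 37 genes, 34 promoters in all. Ttr, Apoc3, Trf, Plg, Kng1, Colec10, Cps1 and Arg1 were not matched. In the 250 bases before each start 5 motifs were searched on both strands: GTTAAT (HNF1), TGTTTNC (FOXA), TTGCNNAA (C/EBP), CAAAGTCC (HNF4) and ATCAAT (ONECUT). They were chosen after matches had been seen, and matches of different motifs overlapped in 0 cases among the members. GTTAAT was in 6 of 19 promoters of plasma protein genes, 2 of 5 of enzyme genes and 2 of 10 of transcription factor genes, and in 6.43% of all 32851 promoters. TGTTTNC was in 12 of 19 plasma protein promoters, 2 of 5 enzyme promoters, 3 of 10 transcription factor promoters and 17.8% of all. TTGCNNAA was in 9 of 19 plasma protein promoters, in 0 of the 15 others of members and in 9.56% of all. CAAAGTCC was in 0 of the 34 and in 393 of all 32851, and ATCAAT in 2 of 19, 1 of 5 and 2 of 10 promoters of plasma protein, enzyme and transcription factor genes and in 6.72% of all. Serpina1a is among the plasma protein promoters. No test was made of these shares.

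**Figure D4:**
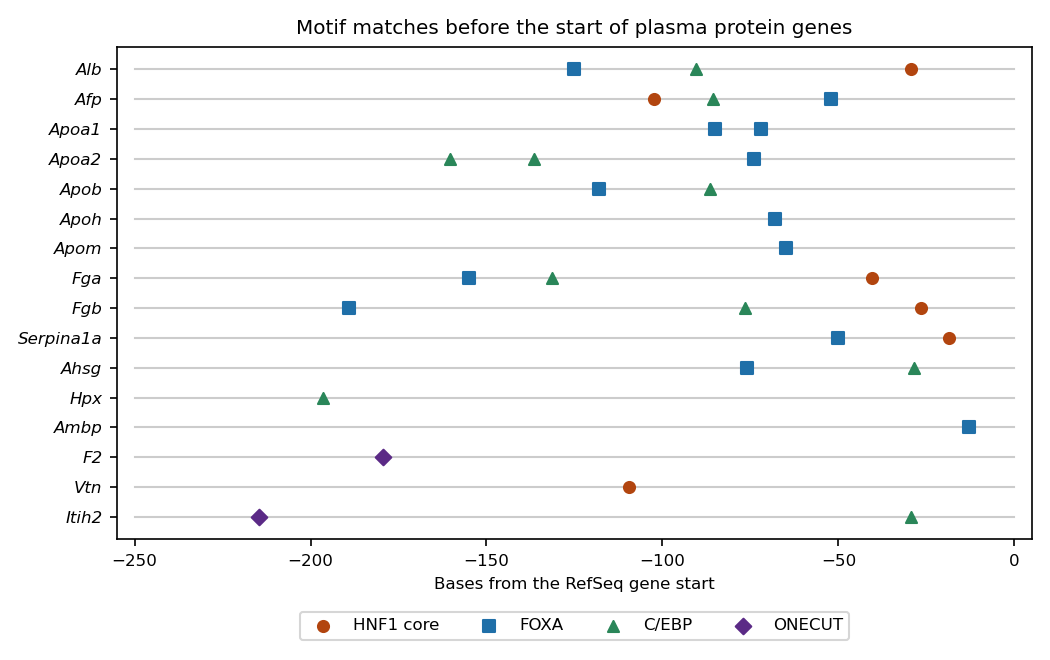
Matches to the HNF1, FOXA, C/EBP and ONECUT motifs (symbols) in the 250 bases before the RefSeq start of the 16 plasma protein genes with any match, with distance from the start on the horizontal axis and both promoters of Apoa2 on 1 line. Alb, Afp, Fga and Fgb each hold a match to the HNF1, FOXA and C/EBP motifs.

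Other genes of the same functions were taken from lists that are not of members. Over all detected genes, 29.1% were at least 2-fold lower in adult and 16.9% at least 2-fold higher. Of 34 further hepatocyte plasma protein genes, 31 were measured and 20 detected, of which 13 were at least 2-fold lower in adult, 4 higher and 3 neither, with a median of -2.57 over those detected and -0.84 over all 31. Serpina6, the corticosteroid carrier, had 35.8 in adult and 2129.7 at E12.5, at least 59.5-fold lower in adult. Itih3 was at least 29.98-fold and the plasmin inhibitor Serpinf2 at least 18.2-fold lower in adult. Cp, the copper protein ceruloplasmin, had 218 in adult and 13.5 at E12.5 and was at least 16.2-fold higher in adult.

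Of 14 measured further hepatocyte enzyme genes 4 were at least 2-fold lower in adult, 2 higher, 7 neither and 1 was not detected. Their median was -0.40 over the 13 detected. These counts lay near the shares over all detected genes, 29.1% lower and 16.9% higher. The liver glycogen synthase Gys2 was at least 13.3-fold lower in adult (1.39 in adult and 77.7 at E12.5), and histidine ammonia-lyase, Hal, at least 23.3-fold higher in adult (216 in adult and 9.29 at E12.5). Of 15 measured further liver transcription factor genes 3 were at least 2-fold lower in adult and 4 higher, with a median of 0.44 over 12 detected. Tbx3 was at least 21.2-fold and Gata4 8.96-fold lower in adult, and the bile acid receptor Nr1h4 at least 4.06-fold higher. Of 9 measured further hepatoblast genes 4 were lower in adult, led by Igfbp1 (at least 120.0-fold) and Dlk1 (128-fold), and 1 was higher, Met, the receptor of hepatocyte growth factor (7.72-fold). Dlk1 and Igf2 are not restricted to hepatoblasts.

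Mature hepatocyte cytochrome and transporter genes were weak on both arrays: of 11 measured, 5 were present in adult and 4 at E12.5. Signals summed over the 6 detected were 258 in adult and 152 at E12.5. Of the 6 detected, 3 were at least 2-fold higher in adult and 1 lower, against 16.9% and 29.1% of all detected genes. Cyp3a11 had 85.6 in adult and 13.6 at E12.5, and Cyp2e1 70.8 in adult and 18.6 at E12.5. The transporters Slco1b2 and Abcb11 had no present call on either array.

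Markers of other cell types also differed between the arrays, in both directions. The sums given here cover only the markers of each list detected on at least 1 array. Of 9 measured erythroid markers 0 were present in adult and 7 at E12.5, with summed signals of 119.9 in adult and 2406 at E12.5. Kupffer cell and macrophage markers were present in 10 of 10 genes in adult and 5 at E12.5, with sums of 26625 in adult and 856 at E12.5. Endothelial markers were present in 9 of 10 genes in adult and 8 at E12.5 (sums of 16803 in adult and 1939 at E12.5). Of the 9 detected, 6 were at least 2-fold higher in adult (16.9% of all detected genes) and 3 neither. Clec4g alone had 6765 in adult. Stellate markers were present in 5 of 7 genes in adult and 6 at E12.5, with sums of 1186 in adult and 5238 at E12.5. Hand2 alone had 2755 at E12.5. Of the 7, 5 were at least 2-fold lower in adult (29.1% of all detected genes), 1 higher and 1 neither. The 1 higher was Lrat, with 39.9 in adult and 14.6 at E12.5. Cholangiocyte markers were present in 2 of 4 in adult and 4 of 4 at E12.5, with sums of 6000.2 in adult and 3845 at E12.5. Most of these sums came from Krt7, with 5585 in adult and 3597 at E12.5. Cftr was 19.1-fold higher in adult, whereas Epcam and Sox9 were absent there and Sox9 was at least 5.16-fold lower. Mesothelial markers were present in 13 of 14 in adult and 12 at E12.5, with sums of 84233 in adult and 35945 at E12.5. The part of these cells in the differences of the members was not tested.

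**Figure D5:**
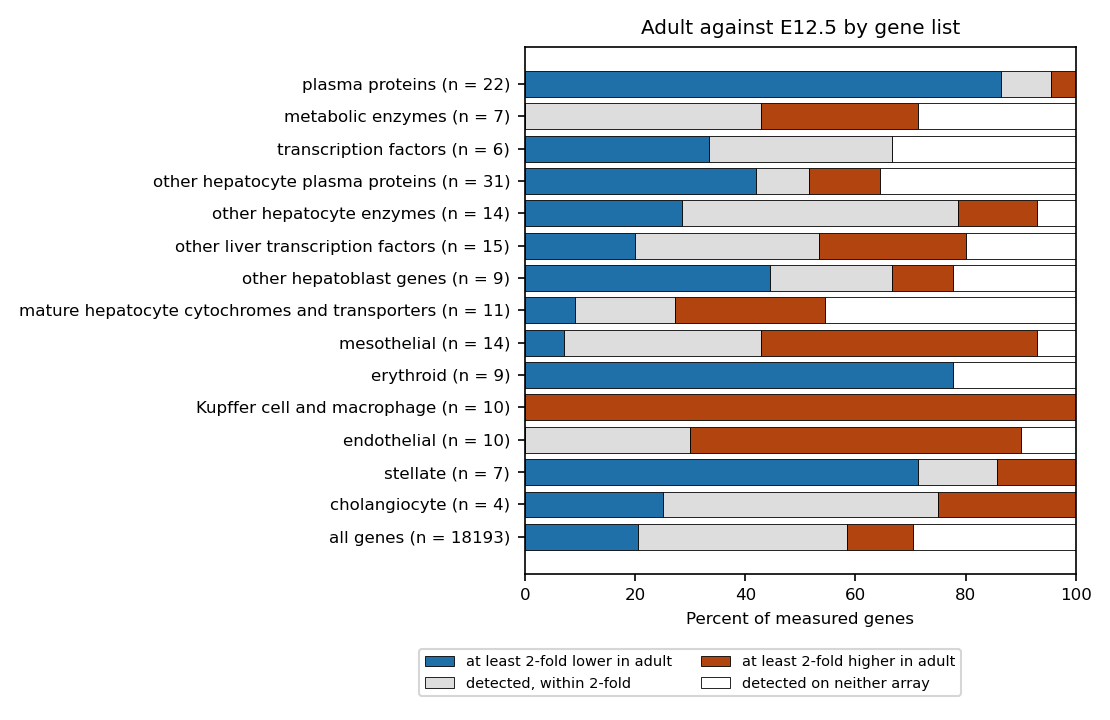
Percent of the measured genes of each list that were at least 2-fold lower in adult, within 2-fold, at least 2-fold higher in adult or detected on neither array, with the number measured in brackets. Plasma protein genes (19 of 22) and erythroid markers (7 of 9) have the largest shares lower in adult among these lists, and 10 of 10 macrophage markers are higher in adult.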

How the data were processed

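Liver mesothelial cells were measured on 2 arrays, 1 adult and 1 E12.5. The authors summarised each of 45101 probe sets to a linear intensity (Raw) and deposited it without scaling between arrays, per the file headers and the values. Their deposited flags, of other kind, give each probe set as present, marginal or absent. The submitters' processing notes name Affymetrix Expression Console; its algorithm and options are not stated there. The authors' deposited ratio equals raw adult signal over 0.680 times raw E12.5 signal, floored at 0.01. The raw medians were 29.9 (adult) and 44.0 (E12.5). The series value table holds the same linear intensities, uncentred.

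Here the adult raw signals were divided by the same 0.680, which adds 0.56 on the log2 scale, in Python 3.11.15 with numpy 2.4.6 and pandas 2.3.3. Control probe sets (64) were left out. Gene names came from the platform annotation, and 34945 probe sets had 1 symbol (34741 matched to RefSeq, GRCm38.p6), 932 several and 9160 none. Of a gene's probe sets called present on at least 1 array, the brightest by mean log2 signal represents it. For a gene detected on 1 array the fold is a lower bound, against the higher of the dim signal and the lowest detected signal on that array (5.84 in adult and 4.57 at E12.5). The SD of 0.62 between probe sets of the same gene, over 4279 genes, measures disagreement within these arrays and not error between arrays. The number of arrays limits the precision.

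All members are named. Of each other list, genes were named among the 4 detected with the largest absolute difference, besides Msln, Podxl, Zbtb20 and Zhx2. Wt1, Upk3b, Met, Slco1b2, Abcb11 and the neighbouring and inter-alpha inhibitor genes fall outside this rule and were chosen after their values were seen. The members and lists were chosen with earlier results of these data known. The calculation was tested on simulated data. Alternatives changed the scaling, probe set choice, detection rule, low signals, table and gene names.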

Additional observations from a re-analysis of the deposited data

How the results depend on the processing

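The count of members at least 2-fold lower in adult was 21 and lay between 16 (only probe sets without a suffix for shared or alternative transcripts, 24 genes detected) and 23 over 12 alternatives, and none of the 21 became 2-fold higher in any of them. The 21 all kept their call under quantile normalization, and 19 kept it with detected genes centred, with 2% trimmed means set equal and with a pseudocount of 16. The count at least 2-fold higher, 3, was 0 without scaling, 0 when a signal above its array's median counted as detected and 1 with the pseudocount. The median over members, -2.12, was between -2.68 (no scaling) and -1.75 (centred), and -2.88 under that median rule, where 26 members remained. The plasma protein median stayed between -3.80 and -2.87. The enzyme median of 0.49 was -0.06 without scaling. Under the median rule it was 2.21, where only Cps1 and Tat remained, and Tat was called absent on both arrays. The transcription factor median stayed below 0. Under the median rule Hnf4a went from -1.22 to -3.57, on a probe set called absent on both arrays. Over all genes 63.2% of 2-fold calls were lower in adult, against 53.6% after quantile normalization, 80.2% without scaling, 45.8% centred and 49.0% with trimmed means, and the median of all detected genes, -0.35, was -0.12, -0.91, 0.02 and -0.04 in the same order. Averaged over probe sets, Apom stood at -7.16 and Afp at -10.35. With the pseudocount, Afp went from -9.13 to -8.19, Fgb from -4.94 to -4.04 and Apob from -4.08 to -3.25. Apom went from -4.51 to -6.21. With the gene names of the deposited table, an alternative chosen after seeing the data, Serpina1a and Ass1 joined those lower in adult and Trf those higher (23 and 4). No paired analysis was possible because each group holds 1 array. Low signals of the enzymes and transcription factors limit what can be said of them.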

Other observations

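Members that are neighbours in the genome did not all lie on the same side of 0. On mouse chromosome 9, Apoc3 is the next coding gene to Apoa1, and Apoa1 was 14.4-fold lower in adult while Apoc3 was at least 2.38-fold higher. Apoa4 and Apoa5, the further members of this gene group, were absent on both arrays, with 7.05 in adult and 8.24 at E12.5 for Apoa4 and 10.8 in adult and 9.73 at E12.5 for Apoa5. Next to Fgg on chromosome 3 lies Lrat, the retinol esterifying enzyme of stellate cells, which had 39.9 in adult and 14.6 at E12.5 and was at least 2.73-fold higher in adult, whereas all 3 fibrinogen genes beside it were lower. On chromosome 16, Ahsg was 4.05-fold lower in adult, its neighbour Fetub had 28.7 in adult and 20.4 at E12.5, Hrg was absent on both arrays, and Kng1 was 4.35-fold lower in adult. The neighbours were picked after their values were seen, and no test was made.

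The inter-alpha inhibitor genes also differed among themselves. Itih2 and Itih3 were at least 10.5-fold and at least 29.98-fold lower in adult. Itih1 was absent on both arrays, with 9.81 in adult and 52.7 at E12.5. Itih4 had 84.2 in adult and 31.1 at E12.5, where it was absent, and was at least 2.71-fold higher in adult.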
